A study of Mus musculus with 12 samples.

Results

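The neuregulin and ERBB genes examined here were Nrg1, Hbegf, Erbb2, Erbb4 and Egfr, taken by their symbols from the deposited table of the embryonic heart transcriptome. All 5 symbols were found among the 20368 genes of the table. RNA sequencing had been done on whole embryonic hearts of strain CD1 at embryonic day 11.5 (E11.5) and 12.5 (E12.5). Mutant hearts carried Mesp1Cre;Hira-/fl, that is 1 null and 1 conditional allele of Hira, which encodes a histone chaperone for the variant H3.3. Control hearts carried Mesp1Cre;Hira+/fl, so Mesp1Cre and a conditional allele were present in every heart. Controls were thus themselves able to lose 1 functional copy of Hira. Cre made from Mesp1 acts in early cardiac mesoderm, and cells of a heart that come from elsewhere, neural crest for example, keep their Hira alleles. Each of the 4 groups had 3 libraries, and since nothing states that each came from a separate embryo, p-values measure only the spread between these libraries.

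Neuregulin 1 is a growth factor secreted by the endocardium, the inner lining of the heart. It binds the receptor ERBB4 on neighbouring cardiomyocytes, and ERBB4 pairs with ERBB2, which has no ligand of its own but a strong kinase. This signal is needed for trabeculae, the muscular ridges that grow into the ventricle, and mice without Nrg1, Erbb2 or Erbb4 die in mid-gestation with a ventricular wall that lacks them. HB-EGF, the product of Hbegf, binds EGFR and ERBB4, and both Hbegf and Egfr are known for limiting the growth of the cardiac valves.

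The genes differ greatly in size, and the lengths behind the table fall short of the annotated exons, most of all for Nrg1 and Erbb4. In the coordinates of the deposited table (build mm10), Erbb2 lies at chr11:98412470-98437716 on the plus strand, Erbb4 at chr1:68032186-69108059 on the minus strand and Egfr at chr11:16752203-16918158 on the plus strand. Nrg1 lies at chr8:31818028-31918203 on the minus strand. The span given for Nrg1 is 100176 bases, while the GENCODE annotation of the same build gives the gene 1069479 bases (chr8:31814551-32884029). The length by which the authors scaled Nrg1 was 2103 bases against 10351 annotated exonic bases, and that of Erbb4 was 4257 against 12355. For Egfr 6438 of 11326 bases were used, for Hbegf 2375 of 4834, and for Erbb3, another ERBB receptor, 4020 of 6016. Only for Erbb2 were the lengths close, with 4998 bases used of 5210. The counts are per gene and say nothing of particular neuregulin isoforms. Whether the counting kept strand is not stated, and in the annotation Nrg1 shares 482 exonic bases with the opposite gene Gm26578 and Erbb2 shares 9 with Mien1. Reads from such bases may belong to either gene.

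Promoter sequences of 3 of the 5 genes, the receptors Erbb2, Erbb4 and Egfr, were matched in the RefSeq promoter table of build GRCm38.p6. They are shown because the study examined GAGA-type repeats as sites where HIRA is found. Its HIRA peaks lay mostly in distal intergenic regions and introns, and its motif was the longer GAGAGAGA. HIRA binding at these promoters was not examined here. Each line gives the bases directly upstream of the annotated gene start, 5′ to 3′ on the strand of the gene, with GAGAG and its reverse complement CTCTC in capitals, overlapping matches included. The positions are chr11:98412234-98412469 for Erbb2, chr1:69108060-69108309 for Erbb4 and chr11:16751953-16752202 for Egfr.
Erbb2: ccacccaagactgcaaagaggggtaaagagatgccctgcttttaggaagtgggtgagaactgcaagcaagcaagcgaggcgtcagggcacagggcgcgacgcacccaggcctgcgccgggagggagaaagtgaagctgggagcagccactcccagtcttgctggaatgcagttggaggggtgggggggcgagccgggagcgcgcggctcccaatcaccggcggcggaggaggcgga
Erbb4: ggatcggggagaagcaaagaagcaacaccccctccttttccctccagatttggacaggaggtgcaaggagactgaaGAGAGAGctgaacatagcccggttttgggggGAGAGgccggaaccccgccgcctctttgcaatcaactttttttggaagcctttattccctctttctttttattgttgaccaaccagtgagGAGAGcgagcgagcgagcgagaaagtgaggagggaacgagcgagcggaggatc
Egfr: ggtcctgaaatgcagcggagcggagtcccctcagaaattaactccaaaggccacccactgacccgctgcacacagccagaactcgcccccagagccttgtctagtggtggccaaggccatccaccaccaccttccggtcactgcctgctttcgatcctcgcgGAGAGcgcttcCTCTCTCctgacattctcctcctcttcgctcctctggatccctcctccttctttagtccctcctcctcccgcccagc
GAGAG was read 4 times in the Erbb4 sequence, not at all in that of Erbb2, and in that of Egfr 1 time on the gene's strand and as 2 overlapping matches on the other. On either strand it is common, being present in 62.0% of all 32851 promoter windows of the table (250 bases before to 50 after a start). The longer GAGAGAGA was in 3.93% of those windows and in none of these 3.

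Read counts per gene were recovered exactly from the deposited values, and the 12 libraries held between 11994148 and 17483982 counted reads. Levels within a gene are given as CPM, reads scaled to one library total after TMM scaling, and levels between genes as RPKM, the same value per kilobase of the length used by the authors. Hira itself was between 68.4 and 85.5 CPM in E11.5 controls and between 56.7 and 74.5 CPM in E11.5 mutants. At E12.5 it was 60.9 to 86.0 CPM in controls and 71.0 to 80.5 CPM in mutants. The ranges overlapped at both stages and Hira was not called (log2 fold change -0.26, SE 0.14, adjusted p = 0.607 at E11.5 and -0.01, SE 0.12, adjusted p = 0.962 at E12.5). Counts are per gene, so the deleted exon cannot be read on its own and the total does not check the genotype labels. The study itself reports fewer reads on that exon in the mutant, recombination seen by PCR and less HIRA protein in mutant hearts at a later stage. Hira also shares 2778 exonic bases with Gm28539 on the same strand, which makes its counts uncertain. Cardiomyocyte markers were abundant throughout, with Tnnt2 between 2717 and 4254 CPM. All 3 E11.5 controls were male by Y-linked reads, against 1 library in each other group. A fit of the E11.5 controls and 1 other group with a sex term therefore compares them with that 1 male library.

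3 libraries stood apart in a way that touched these genes. In E11.5 control replicates 1 and 3 and E11.5 mutant replicate 3, long genes had fewer reads and short genes more. The difference between the longest and the shortest 20% of genes, in median log2 deviation from each gene's mean, was -0.24, -0.39 and -0.64 in those libraries. In the other 9 it was between 0.00 and 0.42, highest in E12.5 control replicate 1. At E12.5 it was 0.42, 0.24 and 0.13 in controls and 0.12, 0.05 and 0.09 in mutants. Every E12.5 control thus lay above every E12.5 mutant, and genotype and this balance went together at that stage. Results that rest on the 3 libraries are given with and without them below.

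In every group Nrg1 and Egfr had the lowest means, and Erbb2 was the most abundant of the genes. At E11.5 its level averaged 29.7 ± 4.39 RPKM (SD, n = 3) in controls and 23.6 ± 3.50 in mutants. At E12.5 the means were 34.3 ± 3.91 and 27.2 ± 5.21 RPKM. Hbegf followed with group means between 6.60 and 7.74 RPKM, and its range lay below that of Erbb2 in all 4 groups. Egfr was lowest in every group, with means between 1.22 and 1.99 RPKM. Nrg1 averaged 1.96 to 2.69 RPKM, and its range overlapped that of Egfr in E11.5 controls but lay above it in the other groups. Erbb4 and Erbb3, the remaining ERBB receptor, lay between Hbegf and Nrg1, and their ranges overlapped each other in every group. The range of Erbb4 overlapped that of Nrg1 at E11.5 in both genotypes, and that of Hbegf in E12.5 controls. This order holds for the lengths used, which leave out much of the annotated exons of every gene here but Erbb2.

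**Figure D1:**
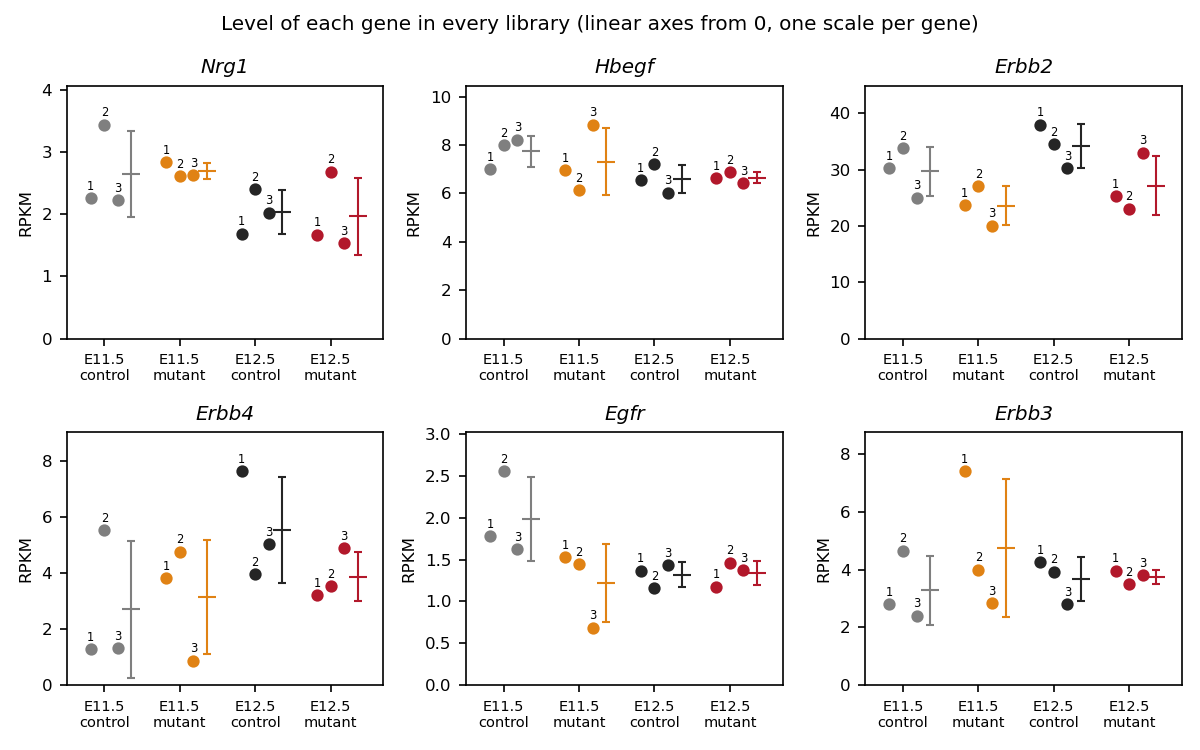
RPKM of Nrg1, Hbegf, Erbb2, Erbb4, Egfr and Erbb3 (1 panel each, linear axes from 0) in every library of the 4 groups, numbered by replicate, with the group mean and SD beside the points. Erbb2 reached 38.0 RPKM while Egfr stayed at or below 2.56, and Erbb4 fell to 0.873 to 1.32 RPKM in 3 of the 6 E11.5 libraries.

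Nrg1, the endocardial ligand, did not differ detectably between mutant and control hearts. E11.5 controls had 4.76, 7.25 and 4.69 CPM and E11.5 mutants 5.97, 5.5 and 5.53. At E12.5 the controls had 3.55, 5.05 and 4.26 CPM and the mutants 3.51, 5.65 and 3.24. Groups overlapped at both stages. The log2 fold change was 0.02 at E11.5 (SE 0.24, 95% interval -0.53 to 0.57, adjusted p = 0.990) and -0.05 at E12.5 (SE 0.26, interval -0.62 to 0.51, adjusted p = 0.930). Over both stages it was -0.01 (interval -0.38 to 0.36), and the exact permutation test within stages gave p = 0.915. Each library held 49 to 113 Nrg1 reads, so counting alone gave an error of 9.41 to 14.3% of a value. The intervals leave room for changes up to their bounds and are not a limit of detection. From E11.5 to E12.5 the estimate was lower in both genotypes (log2 fold change -0.38, SE 0.25, adjusted p = 0.324 in controls and -0.46, SE 0.26, adjusted p = 0.642 in mutants), and neither was called.

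Hbegf was steady, with all 12 libraries between 14.3 and 21.0 CPM. The gene lies at chr18:36504929-36515805 on the minus strand. E11.5 controls had 16.6, 19.0 and 19.5 CPM and mutants 16.5, 14.6 and 21.0. E12.5 controls had 15.6, 17.1 and 14.3 CPM, and the mutants with 15.7, 16.3 and 15.3 lay inside that range. The mutant effect was -0.09 at E11.5 (log2, SE 0.18, adjusted p = 0.940) and 0.01 at E12.5 (SE 0.11, 95% interval -0.24 to 0.26, adjusted p = 0.973). Over both stages it was -0.04 with an interval of -0.25 to 0.17, which leaves room for a change to between 84.2% and 112.7% of the control level. From E11.5 to E12.5 Hbegf changed by -0.23 in controls (SE 0.13, adjusted p = 0.245) and by -0.15 in mutants (SE 0.17, adjusted p = 0.806), and the groups overlapped.

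Erbb2, the receptor that ERBB4 pairs with, was lower in mutants by about the same amount at each stage, but neither difference passed the test. E11.5 controls had 151, 169 and 125 CPM and mutants 118, 135 and 100. At E12.5 the controls had 190, 173 and 151 CPM and the mutants 127, 115 and 165. A single library kept the groups from separating at each stage, E11.5 control replicate 3 (below 1 mutant) and E12.5 mutant replicate 3 (above 1 control). The log2 fold change was -0.33 at E11.5 (SE 0.16, adjusted p = 0.527) and -0.34 at E12.5 (SE 0.13, adjusted p = 0.161). Over both stages mutants had 79.4% of the control level (log2 fold change -0.33, SE 0.11, 95% interval -0.56 to -0.10, adjusted p = 0.0828). The exact permutation test within stages, 1 of 6 run over both stages, gave p = 0.03 where 0.005 is the smallest possible. At an unadjusted p of 0.00779 Erbb2 ranked 1153 of the 12270 genes tested, 19.4% of which had an unadjusted p under 0.05. Among the alternatives without a replicate block, adjusted p was 0.0340 with a sex term, 0.0352 with DESeq2, 0.0354 with a gene length offset and 0.0393 without E12.5 mutant replicate 3, and otherwise between 0.0554 and 0.177. In none of these did the change reach the 1.5-fold that a call also needed. Levels at E12.5 against E11.5 were 0.21 higher on the log2 scale in controls (SE 0.13, adjusted p = 0.288) and 0.19 higher in mutants (SE 0.16, adjusted p = 0.752), and neither was called. The effect of genotype did not differ detectably between stages (-0.00, SE 0.22, interval -0.49 to 0.48).

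Erbb4, the receptor that binds neuregulin directly, varied more between replicates at E11.5 than any other member, with a coefficient of variation of 90.2% in controls and 64.4% in mutants. E11.5 controls had 5.48, 23.6 and 5.60 CPM and E11.5 mutants 16.3, 20.3 and 3.72. The 3 low values came from the 3 libraries with few reads on long genes, 2 controls and 1 mutant. At E12.5 the controls had 32.6, 16.9 and 21.5 CPM and the mutants 13.7, 15.1 and 20.8, with overlapping groups. These controls also had the higher balance of long over short genes. The log2 fold change of mutants was 0.22 at E11.5 (SE 0.67, 95% interval -1.29 to 1.73, adjusted p = 0.957), an interval that runs from 40.9% to 332.2% of the control level. Without the 3 libraries, which leaves 1 control and 2 mutants, it was -0.37. It was 1.28 without E11.5 control replicate 2, and 0.65 without E11.5 mutant replicate 3. At E12.5 it was -0.52 (SE 0.23, interval -1.01 to -0.02, unadjusted p = 0.0431, adjusted p = 0.217), and it ranged from -0.71 to -0.22 when any 1 library was left out. Over both stages it was -0.15 (SE 0.40, adjusted p = 0.902). In controls Erbb4 was 2.03-fold as high at E12.5 as at E11.5 (log2 fold change 1.02, SE 0.48, interval -0.05 to 2.09, adjusted p = 0.170). That estimate rested on the low libraries. Without E11.5 control replicates 1 and 3 it was 0.00, and without E11.5 control replicate 2, the only one not low, it was 2.07 and Erbb4 was called (adjusted p = 0.00144). In mutants the stage difference was 0.27 (SE 0.47, adjusted p = 0.868), or -0.15 without E11.5 mutant replicate 3. Whether genotype acted differently at the stages was not resolved either (-0.75, SE 0.80, interval -2.47 to 0.97).

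The ratio of Erbb2 to Erbb4, the partners of the neuregulin receptor, followed the same libraries. Per length, Erbb2 exceeded Erbb4 by 23.5-fold and 19.0-fold in E11.5 control replicates 1 and 3 and by 23.0-fold in E11.5 mutant replicate 3. In the other 9 libraries the ratio was between 4.97 and 8.72. At E12.5 it was 4.97, 8.72 and 6.0 in controls and 7.87, 6.53 and 6.76 in mutants, which overlapped.

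Egfr had the largest mutant effect of the 5 at E11.5, without passing the test. E11.5 controls had 11.5, 16.5 and 10.4 CPM and mutants 9.86, 9.31 and 4.41, so every mutant lay below every control. Groups were apart in this direction for 7.99% of the 12197 genes tested. The log2 fold change was -0.70 (SE 0.31, 95% interval -1.40 to 0.00, adjusted p = 0.491), and the exact permutation p was 0.1, the smallest that 3 against 3 allows. It was between -0.88 and -0.43 with any 1 library left out (-0.43 without E11.5 mutant replicate 3, -0.47 without E11.5 control replicate 2), -0.78 without the 3 libraries low on long genes, and -1.53 with a sex term (adjusted p = 0.0902), a fit in which the difference comes from mutant replicate 3 against 3 male controls. Epicardial markers were also lower in these mutants. Their summed level (6 genes, among them Wt1, Tbx18 and Aldh1a2) was 518 to 793 CPM in E11.5 controls and 335 to 450 in E11.5 mutants, with all 6 lower at an unadjusted p under 0.05, as for 10.2% of all genes in either direction, and none called. Other markers moved too at E11.5, with none called. All 3 macrophage markers were lower in mutants at that value, and 3 of 6 endocardial and endothelial markers were higher. The 5 cushion mesenchyme markers had a median of -0.24, with 0 at that value. The part of any of these markers in the Egfr value was not tested. In whole hearts, fewer cells of a type and less RNA per cell cannot be told apart.

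At E12.5 the groups overlapped in Egfr. Controls had 8.81, 7.46 and 9.25 CPM and mutants 7.57, 9.41 and 8.85 (log2 fold change 0.02, SE 0.16, interval -0.33 to 0.37, adjusted p = 0.959). Summed epicardial markers likewise overlapped, at 345 to 515 CPM in controls and 424 to 488 in mutants. The difference of the mutant effect between the stages (E12.5 less E11.5) was 0.71 for Egfr (SE 0.37, interval -0.08 to 1.5, unadjusted p = 0.0747, adjusted p = 0.956). Over both stages the mutant effect was -0.34 (SE 0.20, adjusted p = 0.401). In controls Egfr was lower at E12.5 in all 3 libraries than in any E11.5 library, as were 18.5% of the 12252 genes tested. That change was -0.59 (SE 0.20, interval -1.03 to -0.16, adjusted p = 0.0717), which passed the fold of 1.5 but not the adjusted p. It was called with DESeq2 (-0.60, adjusted p = 0.0450) and with a gene length offset (-0.80, adjusted p = 0.0385), and was -0.95 (adjusted p = 0.0596) without E11.5 control replicates 1 and 3. Summed epicardial markers were also lower in controls at E12.5, at 345 to 515 CPM against 518 to 793, with 4 of 6 called lower. Their part in this change was not tested. In mutants the Egfr change was 0.11 (SE 0.28, adjusted p = 0.912).

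In sum over the members, 0 of 5 were called between genotypes at E11.5, where 0.115% of 12197 genes were, at E12.5, where 2.95% of 12257 were, and over both stages, where 3.22% of 12270 were. Between stages 0 of 5 were called in controls (5.28% of 12252 genes) and in mutants (0.556% of 12238), and for the difference of the mutant effect no gene of 12270 was called by edgeR (10 without E11.5 mutant replicate 3), 40 were by DESeq2 and 551 (4.49%) had an unadjusted p under 0.05. Counted at an unadjusted p under 0.05, there were 0 members at E11.5, 2 lower at E12.5 (Erbb2 and Erbb4, where 21.4% of all genes were under that value) and 1 lower in controls from E11.5 to E12.5 (Egfr, where 32.8% were). In mutants between stages there were 0, where 9.27% of all genes were. A count of 0 among 5 genes lies near each of these shares of all genes and is not a result about the set. The genotype comparisons and the stage comparisons draw on the same 12 libraries, so their values are not independent.

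**Figure D2:**
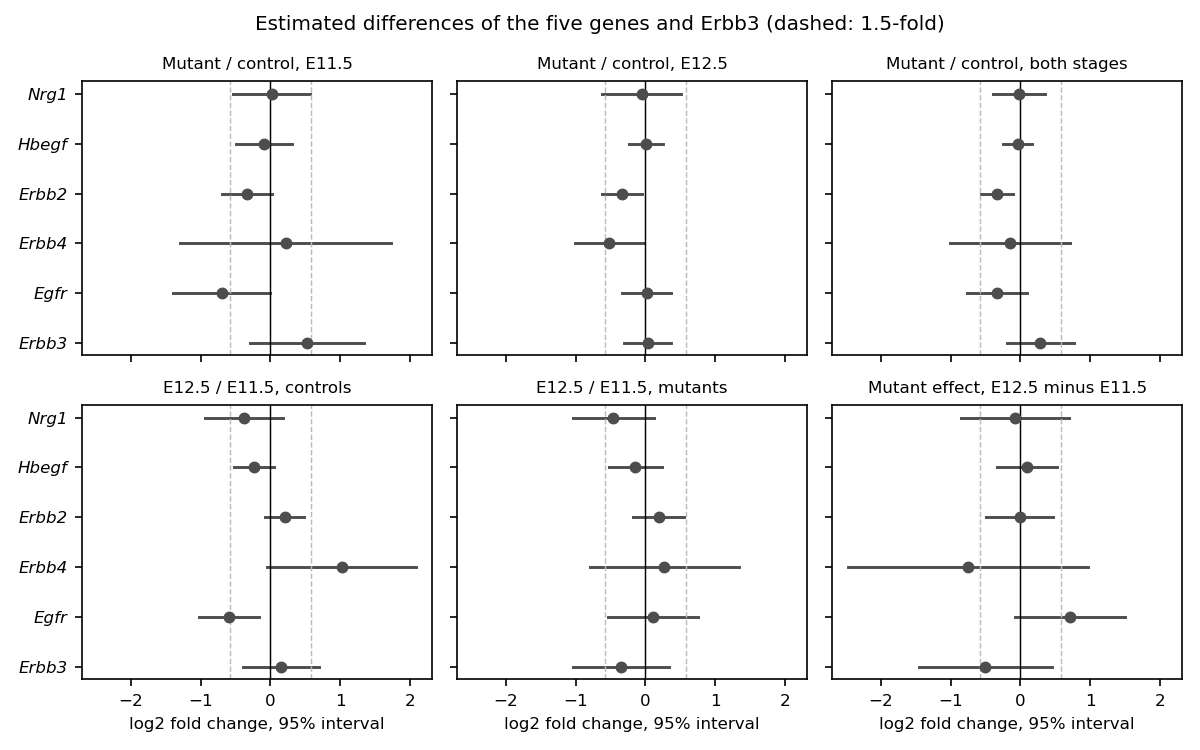
Log2 fold changes with 95% intervals of Nrg1, Hbegf, Erbb2, Erbb4, Egfr and Erbb3 in the 6 comparisons, with dashed lines at 1.5-fold. The intervals of Erbb4 are the widest (-1.29 to 1.73 between genotypes at E11.5), those of Hbegf at E12.5 among the narrowest (-0.24 to 0.26), and that of Erbb2 over both stages lies wholly below 0.

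Erbb4 followed the balance of long and short genes over the 12 libraries, and Egfr did so within groups. Over the 12 libraries the Pearson correlation of log2 CPM with the difference between the longest and shortest 20% of genes was 0.92 for Erbb4 (Spearman 0.62), 0.64 for Erbb2, 0.28 for Egfr (Spearman -0.35), -0.30 for Nrg1 and -0.74 for Hbegf. After subtracting group means it was 0.88 for Erbb4, 0.88 for Egfr, 0.67 for Erbb2, 0.15 for Nrg1 and -0.61 for Hbegf. Erbb4 is itself not among the longest 20% of genes, which begin at 4764 bases in the lengths used. Within groups Erbb4 and Egfr varied together (r = 0.91), as did Erbb2 and Erbb4 (r = 0.72), while Erbb4 and Hbegf had r = -0.53 and Nrg1 with Erbb4 0.24. These are descriptions over 12 libraries that share their depth and their balance of gene lengths. What part that balance has in the values was not tested beyond the fits named above.

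**Figure D3:**
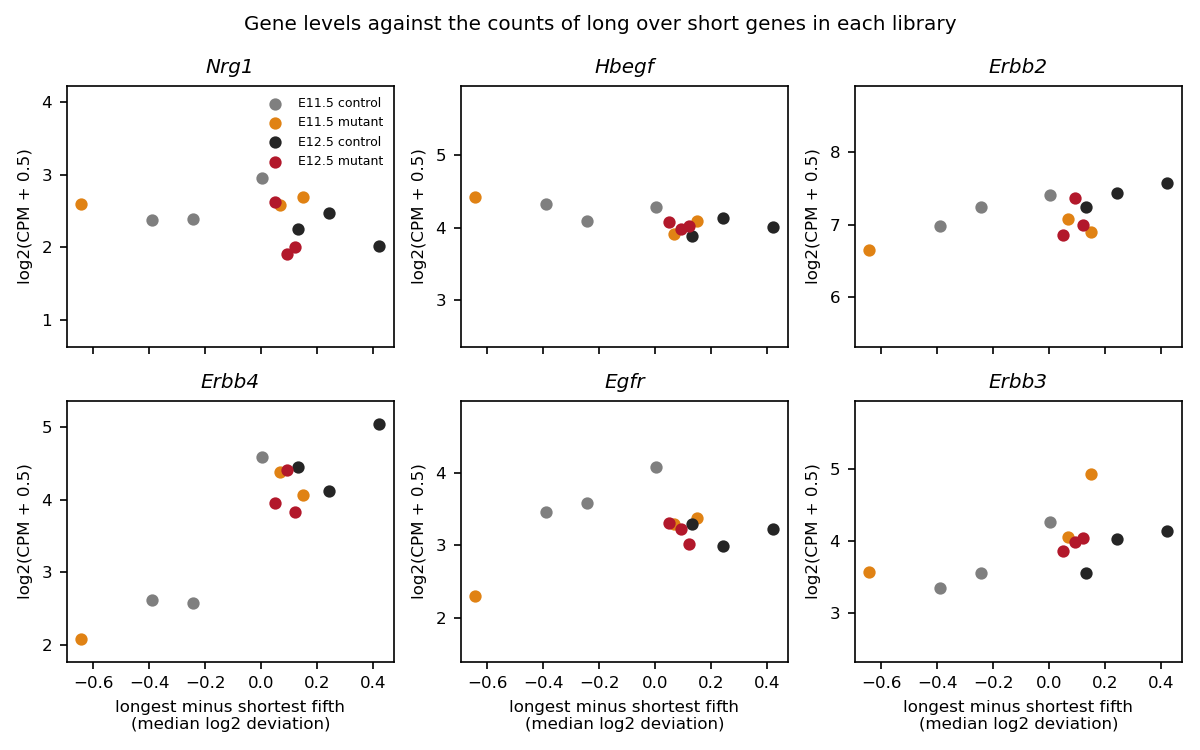
Log2(CPM + 0.5) of each gene in every library against the difference in median log2 deviation between the longest and shortest 20% of genes, with colours for the 4 groups and the same vertical span in each panel. The 3 libraries at -0.24 or below hold the 3 lowest values of Erbb4, whereas Nrg1 shows little relation (r = -0.30).

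The genes whose pattern over the 12 libraries was most like that of a member are named here by the Pearson correlation of log2(CPM + 0.5). For Erbb4 they were Ccdc141 (r = 0.993), Bmpr2 (0.987), a BMP receptor, and Rrn3 (0.982), and 310 of the 12269 other tested genes had an r of at least 0.9 with it. For Erbb2 they were Plekhm3 (0.932), Tbc1d9b (0.925) and D930015E06Rik (0.917), with 12 genes at 0.9 or more. Those of Nrg1 were Fam98b (0.925), Rexo2 (0.894) and Ercc3 (0.843), and those of Egfr were Slc25a24 (0.897), Man2a1 (0.888) and Pdgfd (0.886), the last a PDGF family ligand. Hbegf was nearest to Rpl35a (0.910), a ribosomal protein gene, Lrwd1 (0.898) and Gfer (0.887). Erbb4 alone of the 5 had many genes with nearly the same profile, one in which the 3 libraries low on long genes were low.

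Among the other EGF-family ligands, 3 or 4 of 9 were high enough to test and none was called in any comparison, where at most 5.28% of all genes were. Tgfa, a ligand of EGFR, was the most abundant of them at 2.02 RPKM on average over the 12 libraries. Its mutant effect was -0.01 at E11.5 (log2, adjusted p = 0.996) and -0.19 at E12.5 (adjusted p = 0.710). Nrg2 averaged 0.772 RPKM, with 0.13 at E11.5 (adjusted p = 0.948) and 0.04 at E12.5 (adjusted p = 0.950). Egf was tested at E12.5 alone of these, at -0.24 (adjusted p = 0.743). Areg, Btc, Epgn, Ereg and Nrg3 were below the limit, with at most 20 reads in any library.

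Nrg4, a neuregulin that binds ERBB4, came nearest to a call. E11.5 controls had 1.70, 1.03 and 1.82 CPM and mutants 2.21, 2.90 and 1.38. At E12.5 the controls had 1.31, 1.63 and 2.16 CPM and the mutants 3.04, 3.59 and 3.17, so all 3 mutants lay above all 3 controls, as for 13.7% of all genes. The log2 fold change at E12.5 was 0.94 (SE 0.26, interval 0.36 to 1.51, adjusted p = 0.0670), or 1.91-fold, and over both stages 0.75 (SE 0.23, adjusted p = 0.0635). It was called at E12.5 by limma on log2 RPKM with a pseudocount of 0.5 (0.68) or 0.1 (0.89), and over both stages by DESeq2 (0.75), without the 3 libraries low on long genes (1.03) and without E11.5 mutant replicate 3. The values rest on 16 to 61 reads a library.

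Erbb3, which pairs with ERBB2 and is known from the mesenchyme of the cardiac cushions and from neural crest, was 11.3, 18.7 and 9.67 CPM in E11.5 controls and 29.8, 16.1 and 11.4 in E11.5 mutants. The first of these mutants was the highest of all libraries, and the groups overlapped (log2 fold change 0.53, SE 0.36, adjusted p = 0.729). At E12.5 controls had 17.1, 15.8 and 11.3 CPM and mutants 15.9, 14.1 and 15.3 (0.03, SE 0.15, adjusted p = 0.922), and over both stages the effect was 0.29 (SE 0.22, adjusted p = 0.559). The neural crest markers Sox10 and Foxd3 were low, with 0 to 38 and 0 to 8 reads in a library (at most 2.23 and 0.471 CPM). With stage Erbb3 was not called in controls (0.15, SE 0.25, adjusted p = 0.705) or in mutants (-0.35, SE 0.30, adjusted p = 0.757).

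Of the genes that release, restrain or carry the ERBB signal, none was called between genotypes. Of all genes 0.115% were called at E11.5, 2.95% at E12.5 and 3.22% over both stages. The lists given from here on were counted in the same fits. Of 8 ligand sheddases, proteases and their helpers that cut EGF-family ligands from the cell surface, the median log2 fold change was -0.01 at E11.5 and -0.11 at E12.5. The most abundant were Adam10 (50.8 RPKM, -0.23 at E12.5, adjusted p = 0.146) and Adam9 (24.9 RPKM, -0.30, adjusted p = 0.0535), and at E12.5 all 3 mutants were below all 3 controls for both, as for 12.6% of all genes. Rhbdf2, which helps to mature the protease ADAM17 and is named after its values were seen, was higher in mutants over both stages at an adjusted p of 0.0236 with a log2 fold change of 0.39 (SE 0.09), under the fold for a call, where 6.85% of all genes passed the adjusted p alone. Its mutants lay above the controls at each stage, with 14.2 to 16.5 against 10.8 to 12.8 CPM at E11.5 and 20.3 to 24.4 against 13.9 to 17.9 at E12.5. Groups were apart in the same direction at both stages for 6.53% of genes, counting either direction.

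The 7 receptor inhibitors had a median of 0.01 at E11.5, and of -0.01 a day later. Lrig1, a membrane protein that lowers ERBB receptor levels, averaged 13.0 RPKM (-0.01 at E12.5, adjusted p = 0.939) and Rnf41, a ubiquitin ligase for ERBB3, 10.4 RPKM (-0.01, adjusted p = 0.954). Errfi1, which encodes an inhibitor of the EGFR and ERBB2 kinases and is likewise named after its values were seen, had 14.8, 16 and 17.3 CPM in E12.5 controls and 24.3, 20.8 and 24 in E12.5 mutants. All mutants were higher, as for 13.7% of all genes (log2 fold change 0.52, SE 0.11, adjusted p = 0.0248, a threshold that 5% of all genes passed without regard to fold), again short of 1.5-fold except without E12.5 mutant replicate 2 (0.59, adjusted p = 0.0323). At E11.5 its controls had 24.8, 21.5 and 26.1 CPM and its mutants 27.9, 17.4 and 27.8, which overlapped. In controls Errfi1 fell from E11.5 to E12.5 by 0.59 on the log2 scale (SE 0.13, adjusted p = 0.0261), a call lost under 10 of 18 alternatives, among them leaving out E11.5 control replicate 1 or 3 or E12.5 control replicate 1 or 2.

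In the signal relay from receptor to kinases, 18 of 19 genes were tested and 0 were called in any of the 6 comparisons. Of all genes 0% to 5.28% were called in these comparisons, and a count of 0 lies near those shares. The median of the relay genes was 0.04 between genotypes at E11.5, and -0.04 at E12.5. Akt1 (176 RPKM) changed by -0.01 at E12.5 (adjusted p = 0.961) and Mapk3 (73.5 RPKM), which encodes ERK1, by 0.16 (adjusted p = 0.263). The 10 feedback and target genes of ERK signalling had medians of 0.01 and 0.05. Dusp6, an ERK phosphatase induced by the pathway, averaged 19.6 RPKM and was 0.33 higher at E12.5 (SE 0.09, adjusted p = 0.0706) with every mutant above every control, as for 13.7% of all genes. Spry2, another feedback inhibitor, did not differ detectably (15.2 RPKM, -0.01, adjusted p = 0.962). None of the 10 was called between genotypes, where at most 3.22% of all genes were. Dusp4, named after its values were seen, was called lower with stage in controls (-0.74, adjusted p = 0.0240). It went from between 15 and 18.3 CPM at E11.5 to between 9.33 and 11.6 at E12.5. That call was lost with a sex term (adjusted p = 0.324), where E12.5 control replicate 3 stands against the male E11.5 controls. It was also lost without E11.5 control replicates 1 and 3 together, and without E11.5 control replicate 3 or E12.5 control replicate 1 or 2.

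Of the genes that mark trabecular myocardium, 2 of 6 tested were called lower in E12.5 mutants, and these were the calls in all 57 pathway genes tested at that stage, where 2.95% of all genes were called. Irx3, a transcription factor of the trabeculae and conduction system, had 20.4, 19.3 and 15.7 CPM in controls and 12.0, 9.70 and 11.2 in mutants (log2 fold change -0.75, SE 0.14, adjusted p = 0.0143). Slit2, a secreted guidance protein, had 243, 167 and 142 CPM in controls and 114, 112 and 129 in mutants (-0.64, SE 0.16, adjusted p = 0.0460). In both every mutant was below every control, as for 12.6% of all genes. The balance of long over short genes was likewise lower in every E12.5 mutant than in every E12.5 control. Of the other 4, Bmp10, a trabecular growth factor, was at -0.71 (adjusted p = 0.160) and Gja5, which encodes connexin 40, at -0.41 (adjusted p = 0.250), while the natriuretic peptide genes Nppa and Nppb were at 0.26 (adjusted p = 0.219) and 0.19 (adjusted p = 0.539). The call of Slit2 was lost under 11 of 18 alternatives, among them DESeq2 (adjusted p = 0.0933) and leaving out any 1 library other than E12.5 control replicate 3 (-0.39 without control replicate 1). That of Irx3 was lost under 3 of 18, without E12.5 control replicate 1 or 2 and with all 12 libraries in one fit (adjusted p = 0.247). The median over the 6 genes was -0.53 at E12.5 and 0.04 at E11.5, beside 0.00 over all genes at either stage.

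In controls 4 of the 6 trabecular genes were called with stage, 3 higher and 1 lower, against 5.28% of all genes. Bmp10 rose from between 7.35 and 14.2 CPM at E11.5 to between 14.6 and 36.5 at E12.5 (log2 fold change 1.31, adjusted p = 0.0364), Slit2 rose by 0.96 (adjusted p = 0.0167) and Gja5 by 0.59 (adjusted p = 0.0253). Nppb fell by 1.12 on the log2 scale (adjusted p = 0.0121). Except for Slit2 these genes, and Nppa, are named after their values were seen. Each of these calls was lost under 4 to 10 of 18 alternatives. All 4 were lost with a sex term, without E11.5 control replicates 1 and 3 together and without E12.5 control replicate 1, where Bmp10 was at 0.89. Leaving out E12.5 control replicate 2 lost those of Bmp10, Gja5 and Nppb, E11.5 control replicate 1 those of Bmp10, Slit2 and Gja5, and E11.5 control replicate 3 those of Bmp10 and Gja5. With the sex term, the stage change in controls comes from E12.5 control replicate 3 against the male E11.5 controls. In mutants 0 of 6 were called with stage, where 0.556% of all 12238 genes tested were, and a count of 0 lies near that share. Between the genotypes these changes were not called as different for any of the 6 by edgeR. No compact myocardium gene was called between genotypes, where at most 3.22% of all genes were. At E12.5 Tbx20 (54.5 RPKM) was at -0.17 (adjusted p = 0.270) and Hey2 (52.3 RPKM) at -0.17 (adjusted p = 0.416).

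**Figure D4:**
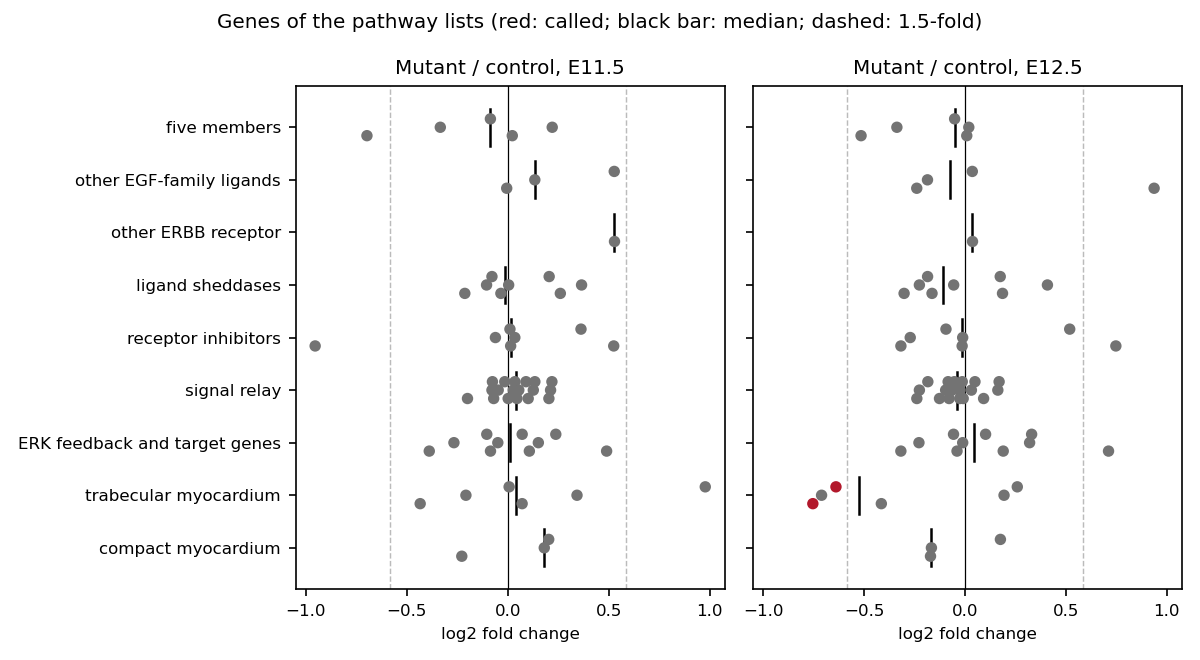
Log2 fold changes of mutant over control at E11.5 (left) and E12.5 (right) for the 5 members and for each tested gene of the 8 pathway lists, with the median of each list as a black bar and called genes in red. Only Irx3 (-0.75) and Slit2 (-0.64) in the trabecular list at E12.5 are called, and the medians of the other lists lie between -0.17 and 0.53.

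Markers of the cell types in which these genes are used moved as follows. Endocardial and endothelial markers (6 genes), the source of Nrg1, summed to 784 to 940 CPM in E11.5 controls and 977 to 1347 in mutants. At E12.5 they summed to 974 to 1015 CPM in controls and 986 to 1194 in mutants. At each stage 3 of the 6 were higher in mutants at an unadjusted p under 0.05, with none called. In either direction 10.2% of all genes were under that value at E11.5 and 21.4% at E12.5. Over both stages 1 of the 6, Nfatc1, was called higher (0.61, adjusted p = 0.00876), where 3.22% of all genes were called. The lowest of the 6 was Tek at 0.03. Cardiomyocyte markers summed to 15048 to 16594 CPM in controls and 15504 to 17586 in mutants at E11.5 and overlapped at E12.5 too, with no gene of 6 called between genotypes. Cushion mesenchyme markers were 593 to 750 CPM against 295 to 649 at E11.5 and 566 to 740 against 431 to 524 at E12.5. At E12.5 1 of 5, Postn, was called lower (-0.61, adjusted p = 0.0241), where 2.95% of all genes were called. The median of the 5 there was -0.02 with a highest of 0.08, and only Postn had an unadjusted p under 0.05. Of the blood markers, 3 of 4 erythroid and 2 of 3 macrophage genes were called lower in E12.5 mutants, against 2.95% of all genes. At E11.5 the 3 macrophage markers summed to 19.8 to 46.8 CPM in controls and 7.98 to 11.7 in mutants, and all 3 were lower at an unadjusted p under 0.05 (median log2 fold change -1.84), with none called. Liver genes were higher in some libraries, up to 55.3 CPM in sum. At E12.5 the 4 liver genes summed to 3.55 to 5.38 CPM in controls and 2.76 to 49.6 in mutants. There 3 of 4 were higher in mutants at an unadjusted p under 0.05, as for 21.4% of all genes in either direction, and none was called. Over both stages 1 of 4 was called higher, against 3.22% of all genes. The parts of all these markers in the values of the 5 genes were not tested.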

How the data were processed

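RNA had been extracted from embryonic hearts in 4 groups of 3 and sequenced as paired ends, the reads aligned by the authors with Bowtie2 to mm10 and normalised with DESeq, per the submitters' processing notes and the study's methods. The counting program, its annotation and its strand setting are not given in the sources used here. The authors deposited 1 table of values per library, which they name RPKM and which is treated here as a score, because each value was a whole count multiplied by a gene's length and by a factor for the library. They also deposited the estimated count of each gene as an average over the 3 libraries of a group, whole after multiplying by 3. Both together gave back the counts per library for 17827 genes with reads, all within 0.001 of a whole number, and 1597 further genes had no read. The columns with the authors' own fold changes and p-values hold their comparisons and were not used.

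Counts were tested with edgeR 4.0.16 (R 4.3.3; quasi-likelihood test, TMM scaling) over all genes with a mean of at least 0.5 RPKM in the libraries of the fit, with the p-values adjusted by Benjamini and Hochberg over all genes tested. Calls needed a 1.5-fold change or more together with an adjusted p not above 0.05, and adjusted p-values in the report are from this fit unless another is named. Fits held the 6 libraries of 2 groups, or all 12 with stage as a term. Fold changes are log2 and intervals 95%. Single genes were also tested by an exact two-sided permutation test on log2(CPM + 0.5). Alternatives used limma 3.58.1, DESeq2 1.42.0, other filters, scalings and pseudocounts, a sex term from 4 Y-linked genes, the replicate number, all 12 libraries in one fit, and each library left out. A gene length offset and a fit without the 3 libraries low on long genes were added after the data were seen. The fits and the recovery of counts were tested on simulated data. Replicates differed by more than sampling noise (chi-square per degree of freedom of at least 6.71), so none was counted as a duplicate, and intervals for counting cover counting error only.

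The 5 genes, the lists and the markers were chosen with earlier results of these data known. Named were the 5 genes and Erbb3, the other EGF-family ligands tested, the genes of the other lists called between genotypes or, with none, the 2 of highest mean RPKM, and 3 genes most like each member. Genes named for another reason are said to be so. The list genes Hras, Cited1 and Adgre1 were not matched in the counts and were left out, and 2 marker genes are not reported here. Gene models are from GENCODE vM21 and promoters from RefSeq.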

Additional observations from a re-analysis of the deposited data

How the results depend on the processing

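The number of the 5 genes called, 0 in each of the 6 comparisons, was the same in all alternatives but 3. In controls between stages it was 1 with DESeq2 and 1 with the gene length offset (Egfr in both), and 0 to 1 when a library was left out, the 1 being Erbb4 without E11.5 control replicate 2. The correlations between the genes stayed within their intervals with pseudocounts of 0.1 and 1. Of the other values, 1020 kept direction and call, 54 lost and 11 gained a call, and 80 changed sign, none of them called in the fit reported. The cause was not tested. With the sex term the mutant effect at E11.5 was -0.000803 for Nrg1, -0.117 for Nrg4, -0.125 for Nrg2, -0.205 for Erbb3, -1.63 for Erbb4 and 0.202 for Hbegf, and its difference between stages was 0.0103 for Nrg1 and 0.173 for Erbb2. In the E11.5 fit that effect comes from mutant replicate 3 against the 3 male controls. With the gene length offset the E12.5 effect was -0.00772 for Hbegf, 0.0307 for Rnf41, 0.0340 for Hira and 0.0392 for Lrig1, and the difference between stages 0.0696 for Erbb2. Limma gave Hira 0.000661 and 0.000346 at E12.5 with pseudocounts of 0.1 and 0.5. Without the 3 libraries low on long genes the E11.5 effect was -0.339 for Nrg1 and -0.367 for Erbb4, the stage change in controls -6.96e-05 for Erbb4, that in mutants -0.148 for Erbb4, -0.153 for Egfr and 0.0223 for Hbegf, and the difference between stages 0.281 for Nrg1 and 0.0713 for Erbb2.

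Leaving out each library in turn, the signs that changed belong to these ranges. At E11.5 the mutant effect ranged from -0.0881 to 0.260 for Nrg1, -0.202 to 1.28 for Erbb4, -0.249 to 0.0283 for Hbegf, -0.0837 to 0.239 for Nrg2 and -0.0875 to 0.123 for Tgfa. At E12.5 it ranged from -0.346 to 0.0969 for Nrg1, -0.0695 to 0.101 for Egfr, -0.0535 to 0.0775 for Hbegf, -0.126 to 0.150 for Erbb3, -0.106 to 0.123 for Nrg2, -0.490 to 0.0272 for Egf, -0.142 to 0.0990 for Hira, -0.0515 to 0.0432 for Lrig1, -0.0486 to 0.0450 for Rnf41, -0.0569 to 0.0504 for Akt1 and -0.0712 to 0.0712 for Spry2. Over both stages the ranges were -0.132 to 0.0831 for Nrg1, -0.376 to 0.187 for Erbb4 and -0.106 to 0.0182 for Hbegf. The stage change in mutants ranged from -0.148 to 0.690 for Erbb4, -0.153 to 0.300 for Egfr and -0.261 to 0.0223 for Hbegf, and the difference between stages from -0.376 to 0.0647 for Nrg1, -0.178 to 0.105 for Erbb2 and -0.0167 to 0.265 for Hbegf.

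Libraries of the same replicate number share only that number: the correlation of their deviations was 0.002, 0.4 and 0.269 at E11.5, 0.027, 0.062 and 0.053 at E12.5, and -0.115 to 0.147 between stages. With the replicate block 0 of the 5 genes were called in any comparison, Erbb2 over both stages was at -0.34 (adjusted p = 0.0467), and the genes called over the whole table were 73 against 14 at E11.5, 424 against 362 at E12.5, 770 against 647 in controls between stages, 36 against 68 in mutants, 407 against 395 over both stages and 0 against 0 for the difference. Over all alternatives that count ran from 0 to 248 at E11.5 (the highest by DESeq2), 132 to 613 at E12.5 (lowest with all 12 libraries in one fit, highest with no fold threshold), 19 to 1407 in controls (lowest with the sex term, highest without E11.5 control replicate 2), 1 to 227 in mutants (lowest without E12.5 mutant replicate 2, highest by DESeq2), 120 to 840 over both stages (lowest at 5 RPKM, highest with no fold threshold) and 0 to 40 for the difference. The shares called that stand beside the 5 genes move with it. Where a group was left with 1 library, that library was assumed to vary like the others.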
